A study of Mus musculus with 24 samples.

Results

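The genotype by conditioning interaction asks whether fear conditioning moved the ribosome-bound transcripts of knock-in mice differently from those of control mice. It is the difference of 2 differences: (cKI 1 h minus cKI naive) minus (control 1 h minus control naive). All 12 ribosome pulldown (IP) libraries of the series entered it, out of 24 libraries in all, with 3 mice in each of 4 groups and 1 library per mouse from both hippocampi. The genes are those with at least 1 CPM (a count relative to the total of its library, the total being scaled by the TMM method) in at least 3 of the 12 libraries, which kept 13012 of 51733. Positive values mean that conditioning moved a gene upward more in cKI mice than in control mice, negative values the reverse.

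Adult males of 2 to 3 months on a C57BL/6 background were used. The groups are cKI mice taken 1 h after fear conditioning, cKI mice taken naive, control mice taken 1 h after conditioning and control mice taken naive. cKI mice are conditional knock-ins: both alleles of eIF2α have the phosphorylated serine replaced by alanine, and a floxed transgene of normal eIF2α (fTg) is removed by Cre. Controls are titled as standard CaMKIIα-Cre+ mice, so that both genotypes carry the Cre, driven by the CaMKIIα promoter, as well as the RiboTag, an HA-tagged ribosomal protein that Cre switches on. The anti-HA pulldown is thus made from cells in which this promoter drove Cre. Conditioning paired a tone with a foot shock, and the labels do not say which of the training strengths in the protocol these mice received.

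Phosphorylation of eIF2α lowers general initiation of translation and raises translation of a few transcripts with upstream open reading frames, of which that for the transcription factor Atf4 is the best known. In neurons a drop in this phosphorylation accompanies learning. Neuronal activity also switches on early response genes, first transcription regulators such as Fos and Fosb and then effectors such as Arc, and the shock raises glucocorticoid hormones that act on transcription through their receptor.

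Pulldown libraries held 30.6 M to 43.5 M counts, so that 1 count was worth at most 0.0327 CPM before scaling. Excitatory neuron markers had a mean log2(CPM + 1) of 8.50 to 8.63 in the pulldowns and 7.85 to 8.07 in the inputs, whereas astrocyte markers were at 3.82 to 4.26 in the pulldowns and 7.29 to 7.48 in the inputs. Eif2s1, the gene of eIF2α, was at 47.1, 48.0 and 47.3 CPM in cKI 1 h mice, 45.1, 50.2 and 47.7 in cKI naive mice, 40.0, 44.9 and 40.1 in control 1 h mice and 39.8, 40.7 and 39.5 in control naive mice. These counts add mutant, normal and transgene copies and so do not show which copy a mouse carried. The 3 cKI naive libraries and replicate 1 of cKI 1 h were sequenced in lane 5, and the other 8, with all controls, in lane 6. No lane held all 4 groups, so the interaction could not be computed within a lane, and lane and genotype cannot be told apart in the naive groups. A lane term in the model is estimated from replicate 1 against replicates 2 and 3 of cKI 1 h alone, and values with lane below rest on that contrast. All cKI inputs and replicates 1 and 2 of the control naive inputs were in lane 4. Replicate 3 of the control naive inputs and all control 1 h inputs were in lane 5. The inputs were not fitted with lane, so their interactions were not separated from it.

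Few single genes passed the test of the interaction. By edgeR's quasi-likelihood test with Benjamini-Hochberg adjustment over all 13012 genes, 2 (0.0154%) had an adjusted p under 0.05: Manba with a positive and Banp with a negative difference of differences, or 0.00769% in each direction. At an unadjusted p under 0.05 there were 1292 genes (9.93%), 761 positive (5.85%) and 531 negative (4.08%). The DESeq2 Wald test called 78 genes, 55 higher and 23 lower, Banp and Manba among them. The median interaction over all genes was 0.00 on the log2 scale, and the median standard error (SE) of a gene's interaction was 0.14.

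The edgeR count was at the edge of detection. It was 0 when any cKI 1 h library, any cKI naive library, replicate 2 or 3 of control 1 h or replicate 2 of control naive was left out. It was 1 without replicate 3 of control naive, 4 without replicate 1 of control naive and 5 without replicate 1 of control 1 h. With sequencing lane, replicate number as a block (the replicate block) or the granule cell score described below in the model, it was 0.

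The component differences are read here only to place the interaction. After conditioning, 7 genes (0.0538%) changed in cKI pulldowns, 6 upward (0.0461%) and 1 downward (0.00769%). With the replicate block the count in cKI pulldowns was 33. In control pulldowns 42 (0.323%) changed, 22 upward (0.169%) and 20 downward (0.154%). Between genotypes, 9 genes (0.0692%) differed 1 h after conditioning, 6 higher (0.0461%) and 3 lower (0.0231%) in cKI. In naive mice 587 (4.51%) differed, of which 186 were higher (1.43%) and 401 lower (3.08%) in cKI. With lane in the model the count after conditioning in cKI mice was 0 and the naive count was 1, and with the granule cell score it was 26. Leaving out 1 library at a time gave 1 to 10, 8 to 73, 3 to 10 and 19 to 1009 genes for these counts in the order given, and each of the 12 libraries moved at least 1 count of the 5 comparisons by over 1.5 times.

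Where the interaction sits among the 4 groups is given as a description. Of the 1292 genes with an unadjusted p under 0.05, 1125 (87.1%) had a larger cKI against control difference in naive mice than at 1 h, against 67.4% of all genes tested. Read the other way, the conditioning difference was the larger one in control mice for 604 of the 1292 (46.7%), against 42.3% of all genes. It had opposite signs in cKI and control mice for 1152 (89.2%), against 46.5% of all genes. These genes were chosen by the interaction, which is the 1 h minus the naive genotype difference. That choice favours opposite signs and raises the share in which the difference with the wider spread is the larger, so neither share is a test. The blue points in the plot of the genotype differences lie mainly along the horizontal axis, where naive mice differ and conditioned mice do not.

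**Figure D1:**
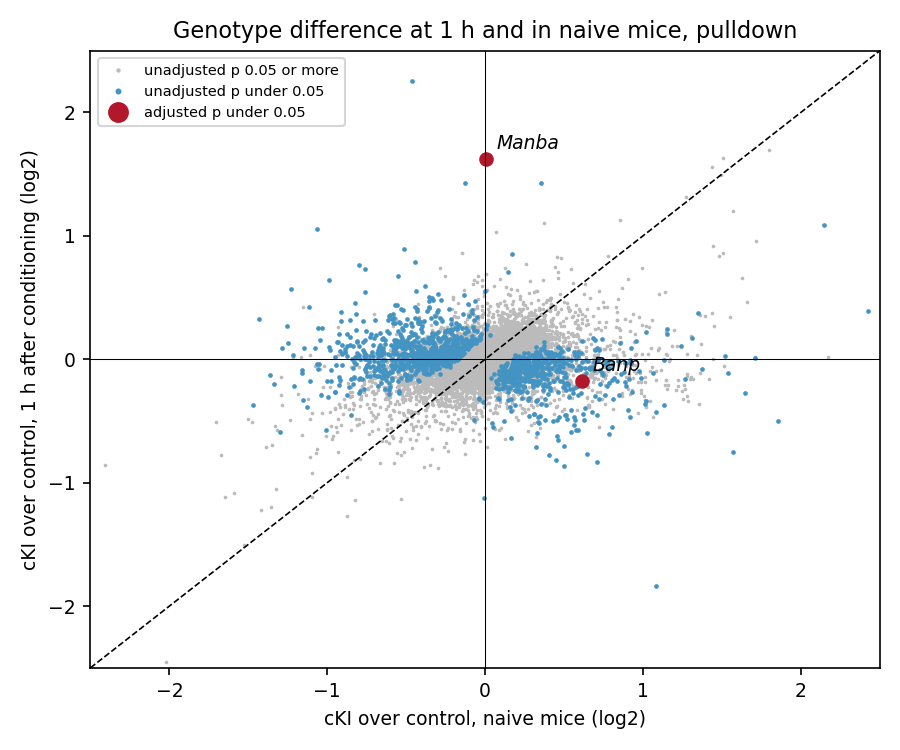
Log2 difference of cKI over control for each gene 1 h after conditioning (vertical axis) against that in naive mice (horizontal axis), in the pulldown. Distance from the dashed line is the interaction. Blue points are genes with an unadjusted p under 0.05 and the 2 red points are Manba and Banp; 10 genes lie outside the axes, which end at 2.5 on the log2 scale.

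Banp (ENSMUST00000170857), a nuclear protein that binds DNA at promoters, was lowest in naive controls. It had 34.5, 35.3 and 34.0 CPM in cKI 1 h mice, 37.7, 39.6 and 40.7 CPM in cKI naive mice, 38.4, 41.8 and 36.9 CPM in control 1 h mice and 27.2, 24.0 and 25.9 CPM in control naive mice. The naive controls lay below all 9 other libraries, and within cKI mice the conditioned animals lay below the naive ones. The interaction was -0.79 on the log2 scale (SE 0.10, 95% interval -1.0 to -0.58, edgeR adjusted p 0.0303). Its parts were a rise of 0.60 after conditioning in control mice (edgeR adjusted p 0.0027) and a difference of -0.19 in cKI mice (edgeR adjusted p 0.29). The call was lost with the granule cell score in the model (-0.73, edgeR adjusted p 0.22) and with lane (-0.79, edgeR adjusted p 0.61). Over the 12 fits that left out a library, the edgeR adjusted p ranged from 0.0242 to 0.139. The call was lost in 10 of these fits and with the replicate block.

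Manba (ENSMUST00000029814), which encodes the lysosomal enzyme beta-mannosidase, was low in conditioned controls alone. Its levels were 5.4, 6.42 and 6.30 CPM in cKI 1 h mice, 5.91, 4.91 and 5.22 CPM in cKI naive mice, 2.19, 1.99 and 1.70 CPM in control 1 h mice and 4.54, 6.48 and 4.93 CPM in control naive mice. The control 1 h values did not overlap with any other group, and the other groups overlapped. The interaction was 1.61 (SE 0.22, 95% interval 1.14 to 2.09, edgeR adjusted p 0.0449), made of a fall by 1.44 after conditioning in controls (edgeR adjusted p 0.0027) and a difference of 0.18 in cKI mice (edgeR adjusted p 0.59). It was 1.5 with the granule cell score and 1.45 with lane in the model, at edgeR adjusted p of 0.43 and 0.70. Leaving out 1 library gave edgeR adjusted p of 0.0242 to 0.179. The call was lost in 10 of those 12 fits and with the replicate block.

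In the input libraries of the same mice both genes had the same sign with a smaller size. The input interaction was -0.35 for Banp (edgeR adjusted p 0.67) and 0.65 for Manba (edgeR adjusted p 0.16). Input Manba was at 10.5, 12.3 and 12.0 CPM in cKI 1 h mice, 10.5, 12.1 and 12.6 CPM in cKI naive mice, 7.91, 7.09 and 7.11 CPM in control 1 h mice and 11.6, 11.4 and 12.2 CPM in control naive mice. Here too the conditioned controls lay below every other library.

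**Figure D2:**
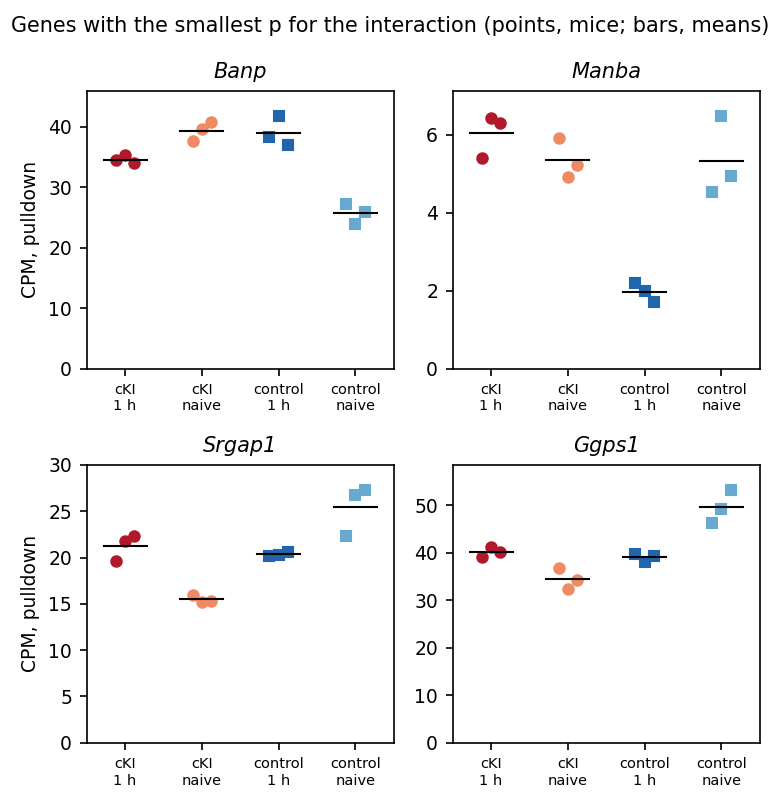
CPM in the pulldown of each mouse for the genes with the smallest p in the interaction, with cKI groups in red and orange and control groups in blue; bars are group means (n = 3). Banp is low in control naive mice, Manba in control 1 h mice, and Srgap1 and Ggps1 are lowest in cKI naive and highest in control naive mice.

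The genes next in order had their extremes in the naive groups. Srgap1, a protein of Slit-Robo signalling, was at 19.7, 21.7 and 22.3 CPM in cKI 1 h mice, 16.0, 15.2 and 15.3 in cKI naive mice, 20.2, 20.2 and 20.6 in control 1 h mice and 22.3, 26.8 and 27.3 in control naive mice. Its conditioned groups overlapped and its naive groups did not, with an interaction of 0.78 (SE 0.12, edgeR adjusted p 0.087). Ggps1, which makes the geranylgeranyl lipid that anchors small GTPases, was at 39.2, 41.2 and 40.3 CPM in cKI 1 h mice, 36.8, 32.3 and 34.3 in cKI naive mice, 39.7, 38.0 and 39.4 in control 1 h mice and 46.4, 49.3 and 53.2 in control naive mice. Its interaction was 0.57 (SE 0.10, edgeR adjusted p 0.17), and cKI was below control by 0.53 in naive mice (-0.53, edgeR adjusted p 0.0035) with a difference of 0.04 at 1 h. Neither gene passed the threshold for the interaction in edgeR, and both did in DESeq2. With the granule cell score in the model the interaction was 0.64 for Srgap1 and 0.51 for Ggps1.

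The other genes with the smallest p and a positive interaction were Zfp467, a zinc finger protein (0.69), Cds1, a CDP-diacylglycerol synthase (0.73), Vwc2l, a secreted protein (1.38), Il17ra, an interleukin 17 receptor (0.83), Jade2, a scaffold of histone acetyltransferases (0.56), Cntnap4, a neuronal adhesion protein (0.98), and Fgf11, an intracellular member of the fibroblast growth factor family (0.66). All 7 had an edgeR adjusted p of 0.23. With the granule cell score in the model they were at 0.70, 0.53, 1.36, 0.65, 0.39, 0.85 and 0.46 in the same order. In naive mice cKI was lower than control for 6 of them by edgeR adjusted p under 0.05, with Il17ra as the exception (-0.36, edgeR adjusted p 0.091). Jade2 rose after conditioning in cKI mice, to 102, 119.7 and 122 CPM against 78.9, 78.2 and 78.1 CPM in naive cKI mice (log2 0.55, edgeR adjusted p 0.034), and was at 97.6, 102 and 108 CPM in control 1 h and 93.1, 107 and 111 CPM in control naive mice.

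With a negative interaction after Banp came Nnt, Klhl40, Golm1, Stk10, Slc27a3, Tubb2b, Rap1a, Pgpep1 and B9d1, at -0.75, -0.97, -0.47, -1.35, -1.03, -0.72, -0.38, -0.47 and -1.14 with edgeR adjusted p of 0.23 to 0.27. In the same order they were at -0.84, -0.83, -0.35, -1.36, -0.82, -0.50, -0.38, -0.39 and -1.28 with the granule cell score in the model. They include a kelch protein of muscle filaments (Klhl40), a Golgi membrane protein (Golm1), a kinase (Stk10), a fatty acid transport protein (Slc27a3), a neuronal beta-tubulin (Tubb2b), a small GTPase (Rap1a) and a protein of the cilium base (B9d1). Nnt, the mitochondrial nicotinamide nucleotide transhydrogenase, had 24.5, 24.4 and 24.4 CPM in cKI 1 h mice, 21.3, 20.6 and 21.1 in cKI naive mice, 26.3, 38.6 and 34.8 in control 1 h mice and 16.0, 16.9 and 18.1 in control naive mice. The 4 groups did not overlap, and both control groups lay outside the range of the cKI groups, on opposite sides of it. Nnt passed the threshold in the input (interaction -0.87, edgeR adjusted p 0.0066).

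The share of dentate granule cells in the pulldown differed widely between mice. Granule cells are the excitatory neurons of the dentate gyrus, and the mean log2(CPM + 1) of 17 of their markers was 6.21, 4.70 and 5.41 in cKI 1 h pulldowns, 6.54, 6.12 and 6.60 in cKI naive pulldowns, 6.10, 5.91 and 4.66 in control 1 h pulldowns and 6.17, 4.75 and 4.80 in control naive pulldowns. The cKI naive mice were all high, and each other group held both high and low mice. Fewer granule cells, less RNA per granule cell and less of that RNA captured are not told apart by marker levels in a pulldown. Which of them varied was not tested. The summed CPM of the markers ranged 3.51-fold over the 12 pulldowns and 1.26-fold over the 12 inputs, a spread of which the inputs of the same mice showed little.

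The difference of differences of this score was -1.29 in the pulldowns. An exact permutation test of the conditioning labels within each genotype (400 arrangements, two-sided) gave p 0.155, or 0.78 adjusted over 12 cell type lists. The smallest p that the design allows is 0.005. The null of this test is no conditioning difference in either genotype, which is narrower than an equal difference in both. In the inputs the difference of differences was -0.00 (exact permutation p 0.955). In the pulldowns it lay between -1.75 and -0.92 when 1 library was left out. A p above the threshold does not show that the groups had equal shares. Nor can the score be separated from lane. Of the 12 libraries 4 were in lane 5 and all 4 were above 6 on this scale, against 2 of the 8 in lane 6. But 3 of those 4 are the whole cKI naive group. The other, replicate 1 of cKI 1 h, was at 6.21, against 4.70 and 5.41 for replicates 2 and 3 in lane 6. That contrast alone sets the lane term, so lane and the granule score cannot be told apart in it. Values with lane and values with the score are thus not independent checks.

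**Figure D3:**
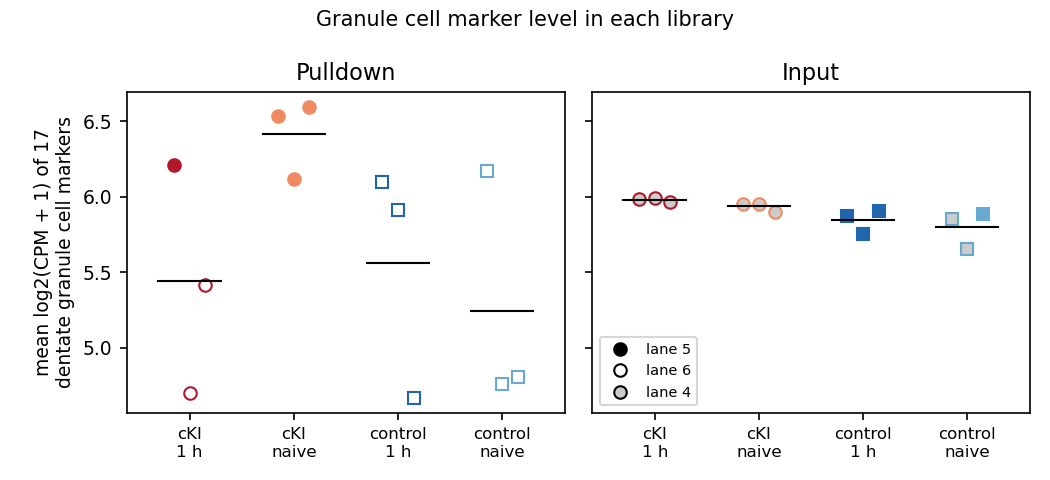
Mean log2(CPM + 1) of 17 dentate granule cell markers in each pulldown (left) and input (right), by group, with bars at the group means. Fill shows the sequencing lane. Pulldowns run from 4.66 to 6.60 and inputs from 5.66 to 5.99, and the 3 cKI naive pulldowns are all high.

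The score is the mean of these 17 markers, so their agreement with it is built in. All 17 had a negative interaction, as 6416 of all 13012 genes had, with a median of -1.24. Of the 17, 0 passed the adjusted threshold and 2 (Il16 and Lct) had an unadjusted p under 0.05, as 4.08% of all genes had with a negative sign. No marker was at 0 in any pulldown. Prox1, the transcription factor that defines granule cells, had 158, 26.8 and 69.1 CPM in cKI 1 h mice, 206, 117 and 212 in cKI naive mice, 147, 119 and 28.8 in control 1 h mice and 153, 33.0 and 36.8 in control naive mice. Its values within a group differed by more than 4-fold in 3 of the 4 groups, and its interaction was -1.47 with an SE of 1.16 (edgeR adjusted p 0.70). Il16, a cytokine precursor, varied less and had an interaction of -0.67 (SE 0.20, edgeR adjusted p 0.31), which was -0.35 with the granule score in the model. Without replicate 1 of control naive the median of the markers was -1.93, and with lane in the model it was -0.56. The number with an unadjusted p under 0.05 was 17 of 17 without replicate 1 of control naive, 8 without replicate 1 of cKI 1 h, 6 without replicate 3 of control 1 h, 1 without each of the other 9 libraries and 0 with lane in the model. With the replicate block that number was 7.

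Markers of CA1 pyramidal neurons, the other large population that the CaMKIIα promoter labels, had values of the opposite sign. All 11 had a positive interaction, as 6596 of all 13012 genes had, with a median of 0.50. Of these 11, 0 passed the adjusted threshold and 6 had an unadjusted p under 0.05, as 5.85% of all genes had with a positive sign. That count was 2 to 8 with 1 library left out, 1 with the granule score and 0 with lane in the model. Man1a, a Golgi mannosidase, was at 42.3, 56.7 and 52.8 CPM in cKI 1 h mice, 39.2, 30.5 and 33.9 in cKI naive mice, 40.0, 44.4 and 60.4 in control 1 h mice and 46.3, 57.5 and 58.3 in control naive mice, an interaction of 0.72 (SE 0.23, edgeR adjusted p 0.33). Wfs1, a membrane protein of the endoplasmic reticulum, had an interaction of 0.48 (SE 0.23, edgeR adjusted p 0.52). With the granule score in the model the interaction was 0.36 for Man1a and 0.13 for Wfs1. The CA1 score had a difference of differences of 0.52 (exact permutation p 0.055, adjusted 0.66). The CA1 median was 0.13 with the granule score and 0.23 with lane in the model, and in the inputs the CA1 score differed by -0.01.

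Across the 13012 genes the interaction and the slope on the granule score within groups had a Pearson correlation of -0.46 and a Spearman correlation of -0.40, a description in which every gene shares the same 12 libraries. With the score as a covariate 743 genes (5.71%) had an unadjusted p under 0.05, 414 positive (3.18%) and 329 negative (2.53%), 519 of them among the 1292 of the model without it, and 2935 genes changed sign. Granule markers are part of this score, so their own change under the covariate (median 0.04) is fixed by the model.

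Early response transcription regulators had interactions on both sides of 0. Of 25 tested, 0 passed the threshold for the interaction, 3 had an unadjusted p under 0.05 with a positive sign and 1 with a negative sign, and the median interaction was 0.04, beside 0.00 over all genes, of which 5.85% had such a p with a positive and 4.08% with a negative sign. With the granule score in the model 0 had such a p in either direction, and with lane the median was -0.09. Their median conditioning difference was 0.33 in cKI mice and 0.38 in control mice. The list's median interaction was -0.08 without replicate 1 and 0.21 without replicate 2 of control 1 h. Over all genes, Fosb, a Fos family partner in the AP-1 complex, and Plk3, a polo-like kinase of the effector list below, were the 2 that passed the threshold after conditioning in both genotypes.

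Since Fosb and Plk3 were called in both genotypes, although no gene was called in cKI mice with lane in the model, the 250 bases before their RefSeq starts (GRCm38.p6) are shown, with capitals for the half-site of the cAMP response element, the letters TGACG searched on both strands. They are chr7:19310046-19310295 for Fosb and chr4:117133964-117134213 for Plk3, both on the minus strand and given 5′ to 3′.
Fosb: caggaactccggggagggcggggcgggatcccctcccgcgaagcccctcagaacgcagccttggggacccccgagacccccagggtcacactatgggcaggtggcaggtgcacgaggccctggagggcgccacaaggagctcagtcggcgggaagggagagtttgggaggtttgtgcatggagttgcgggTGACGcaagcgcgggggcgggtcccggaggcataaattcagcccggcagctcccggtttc
Plk3: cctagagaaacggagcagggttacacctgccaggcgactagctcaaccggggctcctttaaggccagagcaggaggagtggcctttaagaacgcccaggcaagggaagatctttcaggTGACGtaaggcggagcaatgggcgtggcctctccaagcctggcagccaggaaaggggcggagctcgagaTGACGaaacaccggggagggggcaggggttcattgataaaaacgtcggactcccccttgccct
Fosb holds 1 match, at 60 bases before the start, and Plk3 holds 2, at 132 and 63 bases. The half-site was present in 29 of 51 early response genes with a window (56.9%) and in 4747 of 27025 windows of the same length (17.6%). These windows, 1 per gene, were not limited to genes found in the pulldown. The full site, TGACGTCA, was in 6 (11.8%) and 422 (1.56%) of the same windows, with 0 matches in Fosb and in Plk3. A match is a run of letters and not a shown binding site.

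Fosb had 16.5, 16.7 and 18.6 CPM in cKI 1 h mice, 7.12, 6.16 and 7.36 in cKI naive mice, 20.8, 31.0 and 24.6 in control 1 h mice and 9.26, 9.64 and 12.3 in control naive mice. Conditioned and naive mice did not overlap in either genotype, and cKI mice lay below control mice in both states. It rose by 1.33 in cKI mice (edgeR adjusted p 0.0061) and by 1.29 in control mice (edgeR adjusted p 0.0027), and the interaction of 0.04 had a 95% interval of -0.41 to 0.49. The sign of this small value turned with lane (-0.027) or the granule score (-0.016) in the model.

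Plk3 had 10.3, 10.8 and 11.0 CPM in cKI 1 h mice, 5.24, 5.80 and 5.35 in cKI naive mice, 10.5, 11.3 and 11.0 in control 1 h mice and 6.47, 7.66 and 8.05 in control naive mice. The conditioned groups overlapped and the naive groups did not. It rose by 0.97 in cKI mice (edgeR adjusted p 0.0031) and by 0.57 in control mice (edgeR adjusted p 0.038), an interaction of 0.40 (SE 0.14, edgeR adjusted p 0.34).

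The 4 transcription regulators with an unadjusted p under 0.05 were Nr4a1, Nr4a2, Klf6 and Klf2. Nr4a1, an orphan nuclear receptor, was at 139, 214 and 172 CPM in cKI 1 h mice, 56.9, 87.9 and 69.5 in cKI naive mice, 128, 225 and 156 in control 1 h mice and 114, 111 and 139 in control naive mice. The naive cKI mice lay below all others and the conditioned groups overlapped. Its interaction was 0.80 (SE 0.33, edgeR adjusted p 0.46), and that of its relative Nr4a2 was 0.61 (SE 0.21, edgeR adjusted p 0.36). Klf6, a zinc finger factor, had 0.38 and Klf2, which endothelial cells also express, had -0.97 (edgeR adjusted p 0.33 and 0.42). With the granule score in the model Klf6 was at 0.21 and Klf2 at -0.41, and with lane Nr4a1 was at 0.47. Fos itself had an interaction of 0.45 with a 95% interval of -0.44 to 1.34, and Npas4, a neuron-specific activity factor, one of -0.39 with an interval of -1.34 to 0.56. Without replicate 2 of control 1 h the interaction was 0.81 for Fos and -0.024 for Npas4. For these genes the replicates differed too much to place the interaction near 0: replicate 2 of control 1 h held 37.7 CPM of Fos and 20.6 CPM of Npas4, against 18.3 and 22.9 CPM of Fos and 9.18 and 13 CPM of Npas4 in the other conditioned controls.

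Among early response effectors and feedback genes 34 were tested, 0 passed the threshold, and 6 had an unadjusted p under 0.05 with a positive sign against 1 with a negative sign, where all genes had 5.85% and 4.08%. The positive count was 4 to 11 with 1 library left out, and with lane in the model there were 0 positive and 2 negative. Their median interaction was 0.06, which became 0.21 without replicate 2 and 0.01 without replicate 3 of control 1 h. Dusp1, a phosphatase that switches off MAP kinases, was at 9.95, 14.3 and 12.9 CPM in cKI 1 h mice, 7.73, 7.85 and 9.47 in cKI naive mice, 12.0, 16.0 and 13.4 in control 1 h mice and 17, 13.8 and 14.3 in control naive mice. The naive cKI mice lay below all others, and the other groups overlapped. It was lower in cKI than in control among naive mice (-0.85, edgeR adjusted p 0.017), and its interaction was 0.69 (SE 0.21, edgeR adjusted p 0.31). The other positive members were Vgf, a secreted neuropeptide precursor (0.53), Pcsk1, which cuts such precursors (0.65), Dusp6, a phosphatase of ERK (0.66), Midn, a protein that hands early response proteins to the proteasome (0.47), and Plk3. With the granule score in the model Vgf was at 0.25, Dusp6 at 0.32 and Midn at 0.25, and with lane Vgf was at 0.28, Dusp6 at 0.25, Midn at 0.19 and Dusp1 at 0.38. Arc, a capsid-forming synaptic protein, had an interaction of 0.31 with a 95% interval of -0.51 to 1.13, and 0.67 without replicate 2 of control 1 h. With the granule score in the model, 2 members had an unadjusted p under 0.05 in each direction.

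**Figure D4:**
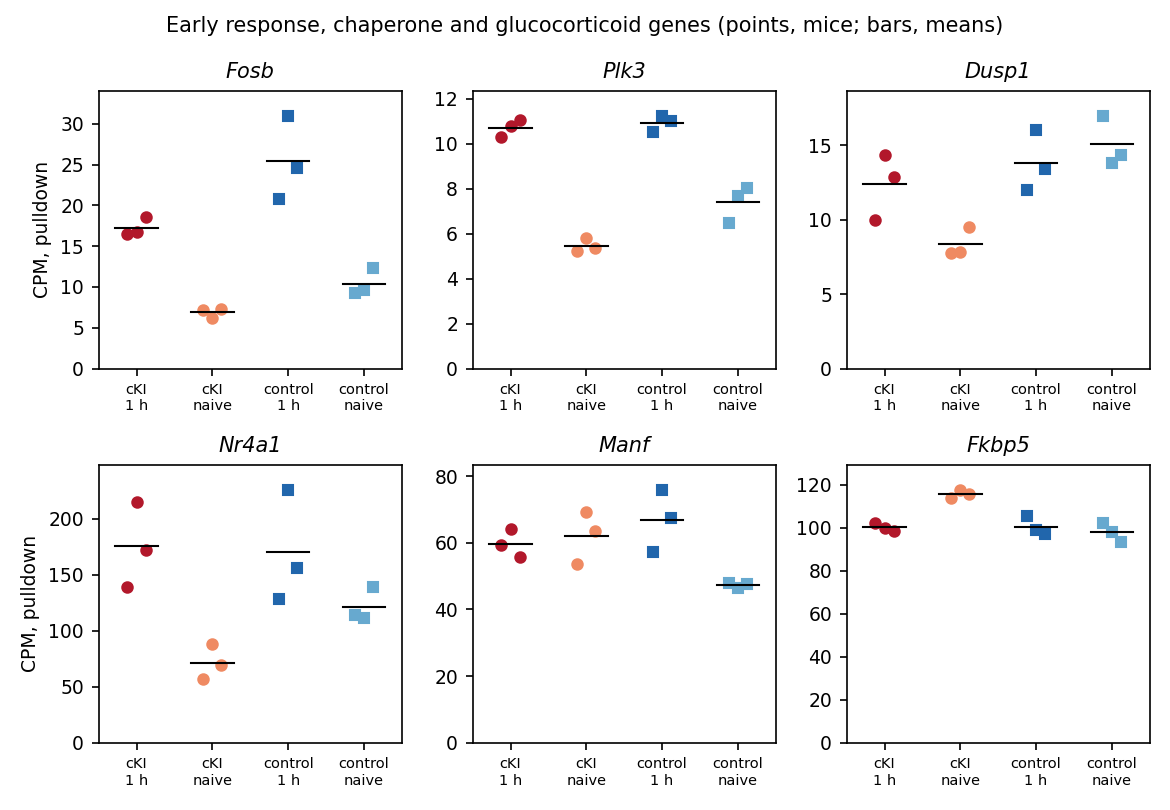
CPM in the pulldown of each mouse for early response genes (Fosb, Plk3, Dusp1, Nr4a1), the endoplasmic reticulum factor Manf and the glucocorticoid-induced gene Fkbp5; bars are group means (n = 3). Fosb and Plk3 are higher at 1 h in both genotypes. Manf is low in control naive mice (46.4 to 47.9 CPM) and Fkbp5 is high in cKI naive mice (114 to 118 CPM).

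Genes of protein folding in the endoplasmic reticulum, the chaperones and regulators of the unfolded protein response, had mainly negative interactions. Of 22 tested, 0 passed the adjusted threshold, 8 had an unadjusted p under 0.05 with a negative sign, as 4.08% of all genes had, and 1 with a positive sign. Their median interaction was -0.20, with 19 of 22 below 0, as were 6416 of all 13012 genes. The count of 8 was 5 to 11 with 1 library left out and 5 with lane in the model. The median conditioning difference was 0.01 in cKI mice and 0.20 in control mice. The median interaction was -0.22 with the granule score and -0.26 with lane in the model, -0.08 in the inputs, and -0.13 without replicate 2 of control 1 h.

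Manf, a secreted survival factor of the stressed endoplasmic reticulum, was at 59.3, 64.1 and 55.6 CPM in cKI 1 h mice, 53.5, 69.2 and 63.6 in cKI naive mice, 57.3, 75.8 and 67.4 in control 1 h mice and 47.9, 46.4 and 47.7 in control naive mice. Naive controls lay below all other mice, as for Banp, and the other groups overlapped. Its interaction was -0.56 (SE 0.15, edgeR adjusted p 0.27), and in the input -0.37. Xbp1, a transcription factor of this response, had 80.8, 77.8 and 80.2 CPM in cKI 1 h mice, 75.4, 99.8 and 78.4 in cKI naive mice, 83.4, 95.5 and 90.5 in control 1 h mice and 71.6, 64.8 and 68.9 in control naive mice, an interaction of -0.48 (SE 0.13, edgeR adjusted p 0.28). Sdf2l1 (-0.78) and Pdia4 (-0.50), which act in folding and disulfide formation, had input values of -0.51 and -0.46. Hspa5, the main chaperone of this compartment, had -0.34 with a 95% interval of -0.73 to 0.06, and -0.22 without replicate 2 of control 1 h.

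Glucocorticoid-induced genes, which the stress hormone raises through its receptor, also tended to negative values. Of 23 tested, 0 passed the adjusted threshold, 8 had an unadjusted p under 0.05 with a negative sign and 1, Dusp1, with a positive sign, where all genes had 4.08% and 5.85%, and the median was -0.15. The count of 8 was 5 with lane in the model and 5 without replicate 3 of cKI naive. The median was -0.21 in the inputs, -0.14 with the granule score in the model and -0.09 without replicate 2 of control 1 h. Fkbp5, a chaperone that dampens the receptor, was at 102, 99.8 and 98.7 CPM in cKI 1 h mice, 114, 118 and 116 in cKI naive mice, 106, 99.0 and 97.1 in control 1 h mice and 102, 98.1 and 93.3 in control naive mice. Only the naive cKI mice stood apart, and the interaction was -0.25 (SE 0.08, edgeR adjusted p 0.32). Mt1, a metallothionein (-0.68), Arrdc3, an arrestin-domain protein (-0.50), and Sult1a1, a sulfotransferase (-1.07), had edgeR adjusted p of 0.23 to 0.27. Arrdc3 was at -0.29 with the granule score or lane in the model. Sult1a1 was the 1 member of any list that DESeq2 called for the interaction.

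Hif3a, a member of the hypoxia-inducible factor family that this hormone raises, was called in the input and was near the filter in the pulldown. In inputs it had 9.47, 9.36 and 8.32 CPM in cKI 1 h mice, 15, 14.1 and 15.3 in cKI naive mice, 16.3, 14.9 and 17.1 in control 1 h mice and 8.01, 7.01 and 7.58 in control naive mice. The conditioned controls and the naive cKI mice were high and the other 2 groups low, with no overlap, an interaction of -1.81 (SE 0.12, edgeR adjusted p 1.33e-05). In pulldowns it had 1.63, 1.07 and 1.38 CPM in cKI 1 h mice, 1.76, 1.14 and 1.95 in cKI naive mice, 2.79, 2.17 and 2.23 in control 1 h mice and 0.938, 1.5 and 1.1 in control naive mice. There the interaction was -1.26 (SE 0.35, edgeR adjusted p 0.27), and conditioned controls lay above all other mice.

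Lists of the eIF2α pathway itself had medians close to that of all genes. Of 37 targets of Atf4 tested, which serve amino acid transport and synthesis and tRNA charging, 0 passed the threshold, 1 in each direction had an unadjusted p under 0.05, and the median was 0.04, with values of -0.02 without replicate 2 and 0.09 without replicate 1 of cKI 1 h. It was -0.048 with the granule score and -0.045 with lane in the model, with 24 of 37 below 0 in both. Atf4 was at 103, 131 and 115 CPM in cKI 1 h mice, 87.5, 99.4 and 92.2 in cKI naive mice, 136, 158 and 148 in control 1 h mice and 119, 139 and 143 in control naive mice. In naive mice cKI lay below control by 0.52 (-0.52, edgeR adjusted p 0.019), and the interaction was 0.18 with a 95% interval of -0.12 to 0.47; it was -0.024 with the granule score in the model. Slc7a3, a cationic amino acid transporter, had 1.54, 1.61 and 2.47 CPM in cKI 1 h mice, 1.79, 1.85 and 1.87 in cKI naive mice, 3.10, 2.52 and 2.83 in control 1 h mice and 4.13, 5.10 and 4.36 in control naive mice. Both control groups lay above both cKI groups, and its interaction was 0.72 (SE 0.26, edgeR adjusted p 0.37), or 0.46 without replicate 3 of cKI 1 h and 0.44 with lane in the model. Jdp2, a bZIP repressor, was the member with a negative sign (-0.29, SE 0.10, edgeR adjusted p 0.35).

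Of 15 transcripts with upstream reading frames that respond to eIF2α, 0 had an unadjusted p under 0.05 for the interaction, and the median was 0.02. Among 19 genes of the eIF2 complex, its kinases, its exchange factor and its phosphatase, the median was -0.01 and 1 had an unadjusted p under 0.05. That gene was Impact, an inhibitor of the kinase Gcn2, at 226, 213 and 228 CPM in cKI 1 h mice, 189, 189 and 188 in cKI naive mice, 223, 226 and 256 in control 1 h mice and 228, 257 and 249 in control naive mice. The naive cKI mice lay below all others, with an interaction of 0.29 (SE 0.09, edgeR adjusted p 0.32). Eif2s1 had -0.06 with a 95% interval of -0.26 to 0.13.

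Cytosolic ribosomal protein genes had small negative interactions across nearly the whole list. Of 74 tested, 73 were below 0, as were 6416 of all 13012 genes, with a median of -0.22. In this list 0 passed the threshold and 8 had an unadjusted p under 0.05, all negative, as 4.08% of all genes had. That count was 24 without replicate 1 of cKI naive and 2 without replicate 3 of cKI 1 h or replicate 2 of any other group, and 2 with the granule score or lane in the model. In naive mice their median genotype difference was 0.22, and at 1 h it was 0.00. The mean log2(CPM + 1) of the list was 4.34, 4.38 and 4.24 in cKI 1 h mice, 4.32, 4.66 and 4.42 in cKI naive mice, 4.39, 4.35 and 4.23 in control 1 h mice and 4.32, 4.24 and 4.26 in control naive mice. Replicate 2 of cKI naive was the highest library, and without it the median interaction was -0.10. With the granule score in the model the median was -0.22, with 66 of 74 below 0, and in the inputs it was 0.05. Rpl10a, a protein of the large subunit, had the smallest p, with 15.9, 13.6 and 14 CPM in cKI 1 h mice, 15.6, 20.0 and 16.7 in cKI naive mice, 16.7, 15.5 and 15.2 in control 1 h mice and 15.1, 13.5 and 14.1 in control naive mice (interaction -0.42, SE 0.14, edgeR adjusted p 0.35). Rps10, of the small subunit, had -0.34 (SE 0.12, edgeR adjusted p 0.37). Ribosomal protein genes have many near-identical processed copies in the genome, among which the counting could split reads.

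The remaining lists are given for completeness. Transcripts of the mitochondrial genome and markers of CA2 and CA3 pyramidal neurons had medians of -0.07, 0.07 and -0.04. Heat shock genes, other initiation factors, excitatory neuron markers and genes of synaptic plasticity had medians of -0.06, -0.03, -0.05 and 0.08, and 0 members passed the threshold. Markers of inhibitory neurons, astrocytes, oligodendrocytes, their precursors, microglia, vessels and choroid plexus had medians from -0.18 to 0.26, also with 0 called, and 0 of 5 blood markers passed the filter. No cell type score passed its exact permutation test after adjustment over the 12 lists. The part of the granule cell share in any list above was not tested beyond the covariate values given with it.

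**Figure D5:**
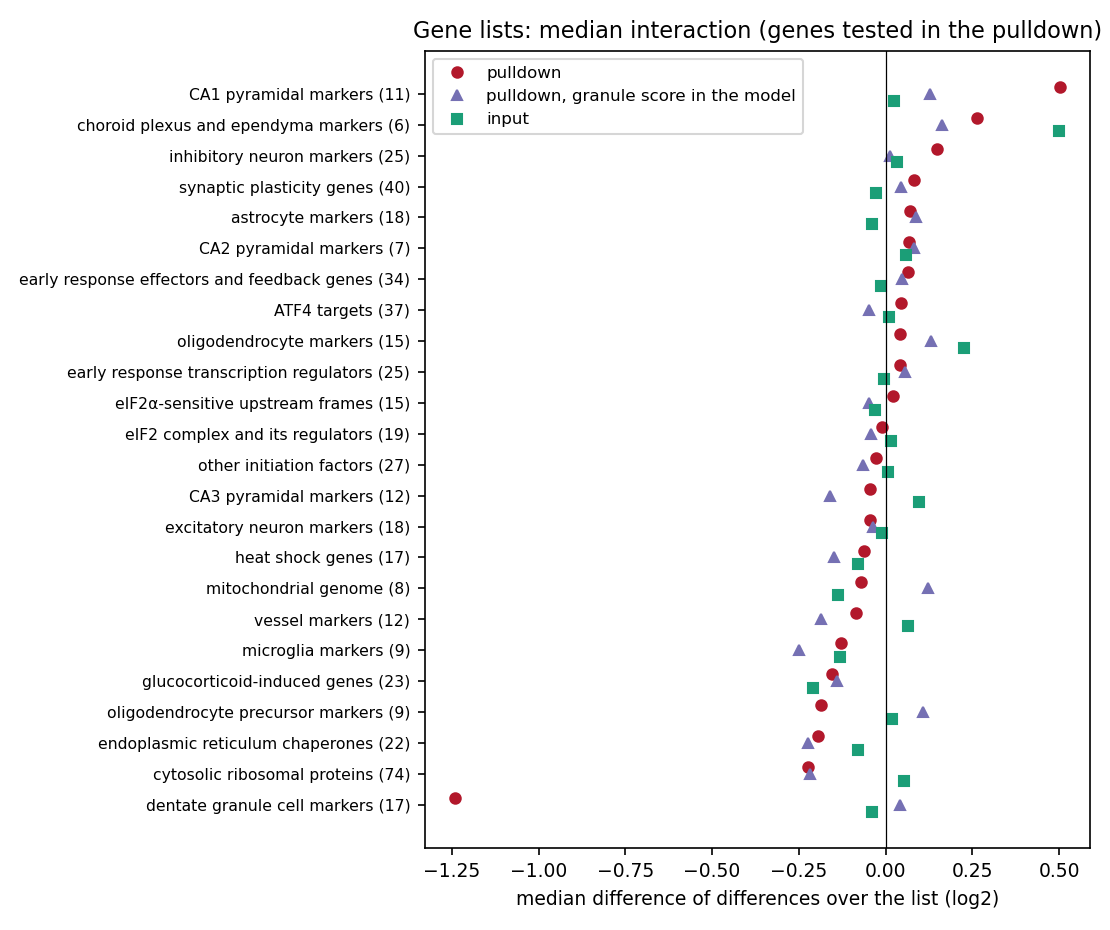
Median difference of differences (log2) over the genes of each list, with the number of genes tested, for the pulldown (circles), the pulldown with the granule cell score in the model (triangles) and the input (squares). Granule cell markers (-1.24) and CA1 markers (0.50) are the extremes in the pulldown. With the score in the model, ribosomal protein (-0.22), chaperone (-0.22) and glucocorticoid (-0.14) lists keep negative values. So do other lists, among them microglia (-0.25), vessel (-0.19), CA3 (-0.16) and heat shock (-0.15).

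The interaction was also compared between fractions. The same test in the 12 inputs called 6 of 14783 genes (0.0406%), 2 positive (0.0135%) and 4 negative (0.0271%), and 0 were among the calls of the pulldown. A model of all 24 libraries with the mouse as a block called 0 of 14873 genes for a difference between the pulldown and input interactions, with 982 at an unadjusted p under 0.05. For Banp that difference was -0.46 and for Manba 0.93 (edgeR adjusted p 0.72 and 0.70). For the 17 granule markers its median was -1.25, and for the 22 chaperone genes it was -0.13. Sequencing lane was in neither the input model nor the model of all 24 libraries.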

How the data were processed

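Whole-number counts for 51733 gene symbols, each with a transcript identifier, were deposited by the authors without normalization. Of upstream tools, cutadapt, Bowtie and DESeq2 appear in the submitters' processing notes. The counter, genome build and strand setting are not stated there. Libraries were poly(A)-selected, per the labels' protocols. Symbols matched the name table for 47598 rows (92%). In R 4.3.3, edgeR 4.0.16 fitted the 12 pulldown libraries with TMM scaling, 1 mean per group and the robust quasi-likelihood test, with a CPM of at least 1 in 3 libraries, a 0.05 threshold and 95% intervals. Scores are means of log2(CPM + 1); CPM uses the TMM-scaled total. P-values of edgeR and DESeq2 set a difference between groups against the spread between mice within groups. They do not separate genotype from lane in the naive pulldowns. Alternatives included DESeq2, other filters, lane, granule score, replicate block and leaving out each library. Named genes are the calls, the 10 smallest p in each direction (mean log2 CPM 2 or more, no clone names), fixed genes and the smallest p of each list; other list members were chosen after their values were seen. Members and lists were chosen with earlier results of these data known.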

Additional observations from a re-analysis of the deposited data

Results flagged for a closer look

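These genes passed the adjusted threshold in the edgeR test of the difference of differences. In the pulldown they were Banp (-0.79) and Manba (1.61), whose values by mouse are given above. Each of these 2 calls was lost in 10 of the 12 fits that left out a library. Both were also lost with lane, the granule score or the replicate block in the model. The size of the interaction changed little over the 7 alternative settings that kept all 12 libraries. It was -0.79 to -0.73 for Banp and 1.45 to 1.62 for Manba. In the input the genes that passed were Hif3a (-1.81), Nnt (-0.87), Adipor2 (-0.46), Etnppl (1.09) and the unnamed transcripts A730081D07Rik (2.90) and AC154550.1 (-0.86), with edgeR adjusted p of 1.33e-05, 0.00663, 0.0245, 0.0245, 0.0329 and 0.00663. The input model was not fitted with lane.

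In the pulldown, the same input genes had interactions of -1.26 for Hif3a, -0.75 for Nnt, -0.09 for Adipor2, 1.56 for Etnppl, 2.71 for A730081D07Rik and -0.75 for AC154550.1. All 6 signs were those of the input, and none passed the edgeR threshold there. Nnt and AC154550.1 are not separate results: their CPM ratio was 1.00 to 1.02 in all 24 libraries, so the table counts nearly the same reads for both. Etnppl, an astrocyte enzyme of phosphoethanolamine breakdown, had 26.2, 22.2 and 21.3 CPM in cKI 1 h inputs, 26.4, 19.7 and 26.7 in cKI naive inputs, 11.1, 11.4 and 11.0 in control 1 h inputs and 25.7, 24.0 and 24.4 in control naive inputs.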

How the results depend on the processing

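No value of the 55 genes followed changed side of the threshold under DESeq2 size factors or filterByExpr. The count of genes called for the interaction was 2 there, 78 by the DESeq2 Wald test, 16 with no filter on low counts, and 0 with the replicate block, lane or granule score in the model. In the same order, these 5 settings gave 130, 25, 33, 0 and 2 genes for conditioning in cKI mice, and 272, 112, 50, 13 and 125 in control mice. They gave 46, 22, 6, 5 and 12 between genotypes at 1 h, and 1326, 641, 1081, 1 and 26 in naive mice. Leaving out 1 library gave 0 to 5, 1 to 10, 8 to 73, 3 to 10 and 19 to 1009 genes for the 5 comparisons. Input calls ranged from 3 to 17, and were 4 with the replicate block. List members called were 0 throughout except 1 by DESeq2.

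Whether the replicate numbers pair the mice over all 4 groups was not settled. Of 18 same-numbered pairs 10 had deviations correlated above 0.1, over a range of -0.358 to 0.578, and differently numbered pairs were not compared. The 3 pairs of cKI 1 h and cKI naive mice were all above 0.1 (0.161 to 0.427). The edgeR adjusted p of both Banp and Manba was 0.0633 with the replicate block. Signs that turned were those of Fosb, with lane (-0.027), the granule score (-0.016) and 4 omitted libraries (-0.11 to 0.21 over the 12), of Atf4 with the granule score (-0.024) and of Prox1 with the granule score (0.25). The granule score difference was -1.23 from summed CPM and -1.32 with library totals, and -1.75 to -0.92 with 1 library left out. The comparison of fractions called 0 genes without the mouse block. Why counts moved was not tested. With 3 mice a group and a median SE of 0.14, interactions of small size were not detectable for most genes.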
